A study of Mus musculus with 18 samples.

Results

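The genes described here encode the constitutive proteasome and the factors that assemble and regulate it. They were all protein-coding mouse genes of the expression table whose symbol begins with Psma, Psmb, Psmc, Psmd, Psme, Psmf or Psmg, without the inducible immunoproteasome subunits Psmb8, Psmb9 and Psmb10. The table held 16545 genes, and 48 of them met this rule. All 48 genes that the rule takes from the RefSeq annotation were in the table, and every one had a value above 0 in at least 1 library of each comparison and was therefore tested. They comprised 8 genes of the alpha ring, 8 of the beta ring, 6 of the ATPase ring, 11 other subunits of the 19S particle, 3 assembly chaperones of the 19S particle, 4 assembly chaperones of the 20S particle, 6 activators and inhibitors, and 2 genes that are only named like subunits.

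The proteasome is the protease complex that degrades most ubiquitin-tagged proteins of the cytosol and nucleus. Its 20S core is a barrel of stacked rings, in which the outer alpha rings gate the entry and the inner beta rings carry the catalytic subunits Psmb5, Psmb6 and Psmb7. The 19S regulatory particle binds ubiquitin chains, removes them and unfolds the substrate with a ring of ATPases, and dedicated chaperones, which leave the finished complex, build both particles. B cells that are activated by lipopolysaccharide (LPS), a bacterial ligand of the receptor Tlr4, grow, divide and in part become antibody-secreting plasmablasts, whose high rate of protein synthesis is known to load the proteasome.

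RNA was sequenced from B cells of mouse spleen that were enriched with a negative-selection kit and then sorted by flow cytometry. The cells were taken before LPS (0 h) or cultured with it for 24 h or for 48 h. Control mice carried a B cell-specific Cre allele and wild-type Zbtb24, and Zbtb24 B-CKO mice were littermates with the same Cre allele and Zbtb24 loxp/loxp, in which Cre removes exon 2 of Zbtb24, the exon that holds the translation start. Zbtb24 encodes a zinc finger transcription factor. Both genotypes therefore carried 1 copy of the Cre allele, and the deletion was limited to cells that had expressed Cre. Each of the 6 groups had 3 libraries, and the methods give 1 mouse per replicate. Whether the 0 h, 24 h and 48 h libraries of a replicate number share a mouse is not given in the sources used here. The ages of these mice were not given in the sources used here.

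Values were FPKM as deposited, that is, sequenced fragments divided by transcript length and by the size of the library, so that levels of different genes can be set side by side. The depth of the libraries in fragments was unknown, so no counting interval could be given. Replicate libraries correlated at 0.986 to 0.999 on the log2(FPKM + 1) scale across genes. Log2 changes below are differences of log2(FPKM + 1), which understate the change of genes at low FPKM, and the adjusted p is that of limma with Benjamini-Hochberg adjustment over all genes tested, with a call at an adjusted p under 0.05. Zbtb24 was at 49.6, 49.6 and 37.1 FPKM in the control libraries at 0 h and at 14.3, 10.5 and 12.6 in the B-CKO libraries. Every B-CKO library lay below every control library at each time, although the difference was not called (log2 change at 0 h -1.78, adjusted p = 0.12). Mean Zbtb24 in control cells fell to 17.6 FPKM at 24 h (log2 change -1.31, adjusted p = 0.000296) and was 15.2 FPKM at 48 h. The B-CKO means were 10.9 and 10.4 FPKM. The difference between the genotypes was thus smaller at 24 h (-0.64, adjusted p = 0.0586) and at 48 h (-0.50, adjusted p = 0.267). The summed FPKM of 7 B cell markers was between 3913 and 5293 at 0 h and between 1999 and 2636 later, and that of the matched T cell markers lay between 6.11 and 13.2 at 0 h and was at most 2.26 later. As these are bulk samples, fewer cells of a type and less RNA per cell cannot be told apart.

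At 0 h the most abundant of the 48 transcripts in control cells were Psme1, a subunit of the PA28 activator that opens the core, with a mean of 192 FPKM, and the beta ring subunits Psmb4 and Psmb1 with 117 and 106 FPKM. The lowest were Psma8 and Psmb11, the forms of an alpha and a beta subunit known from testis and thymic epithelium, and Psmc3ip, a cofactor of meiotic recombination that binds an ATPase subunit but belongs to no proteasome. Psmb11 was at 1.01, 1.08 and 1.32 FPKM, and Psmc3ip was at 2.94, 3.75 and 2.18 FPKM. Psma8 was listed at 0 in 2 of the 3 control libraries at 0 h and did not exceed 0.29 FPKM in any of the 18 libraries. The 14 genes that form the standard 20S core, Psma1 to Psma7 and Psmb1 to Psmb7, summed to 941 ± 55.3 FPKM (SD, n = 3), and the highest of them was 3.47 times the lowest. At 24 h this ratio was 2.64 and at 48 h 3.16. Psme2, the partner of Psme1 in PA28, was the highest of the 48 transcripts at 24 h with 421 FPKM, followed by Psme1 (363 FPKM) and Psmb4 (285 FPKM). At 48 h Psmb4 (279 FPKM), Psme1 (276 FPKM) and the alpha subunit Psma6 (243 FPKM) led. At both later times Psma8, Psmb11 and Psmf1, which encodes the proteasome inhibitor PI31, were the lowest.

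The first comparison asks how these genes moved in control B cells over 24 h of LPS. Nearly the whole machine rose, as 45 of the 48 genes were called higher, 2 were called lower and 1 was not called. Over all 15531 genes tested, 26.7% were called higher and 30.7% lower. The median log2 change of the 48 genes was 1.49, beside -0.02 over all genes tested. Together the 48 genes took 0.480% of all FPKM at 0 h and 1.22% at 24 h, a rise of their sum from 2226 to 6348 FPKM.

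In the alpha ring 7 of the 8 genes rose, with a median log2 change of 1.90. Psma5 rose most, from 40.1, 32.0 and 29.5 FPKM at 0 h to 145.9, 148.1 and 146.3 FPKM at 24 h. The groups did not overlap, and the mean was 4.33 times higher (log2 change 2.10, SE 0.112, adjusted p = 2.2e-05). Psma7 went from 72.7, 72.3 and 64.3 FPKM to 282.9, 285.3 and 262.3 FPKM, a 3.97-fold higher mean. The smallest rise in the ring was that of Psma2 (91.8 to 233 FPKM, log2 change 1.34). Psma8, whose 24 h values were 0.13, 0.29 and 0.03 FPKM, was the gene without a call (adjusted p = 0.103).

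In the beta ring 7 of the 8 genes rose, among them the 3 catalytic subunits. Psmb5, which carries the chymotrypsin-like activity and is the target of bortezomib, was at 58.8, 51.0 and 38.0 FPKM at 0 h and at 184.0, 192.4 and 177.9 FPKM at 24 h. Its mean was 3.75 times higher (log2 change 1.91, SE 0.154, adjusted p = 0.000106), and this was the largest change of the ring. Psmb7, with the trypsin-like activity, rose from 72.1 ± 1.30 to 213 ± 7.96 FPKM (SD, n = 3; log2 change 1.55, SE 0.0494), and Psmb6, with the caspase-like activity, from 60.8 ± 4.78 to 155 ± 11.1 FPKM (log2 change 1.34, SE 0.0822). The smallest rise was that of Psmb1, a subunit without catalytic activity, from 106 to 187 FPKM (log2 change 0.81). Psmb11 fell, from 1.14 to 0.18 FPKM (log2 change -0.86, adjusted p = 0.000181).

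**Figure D1:**
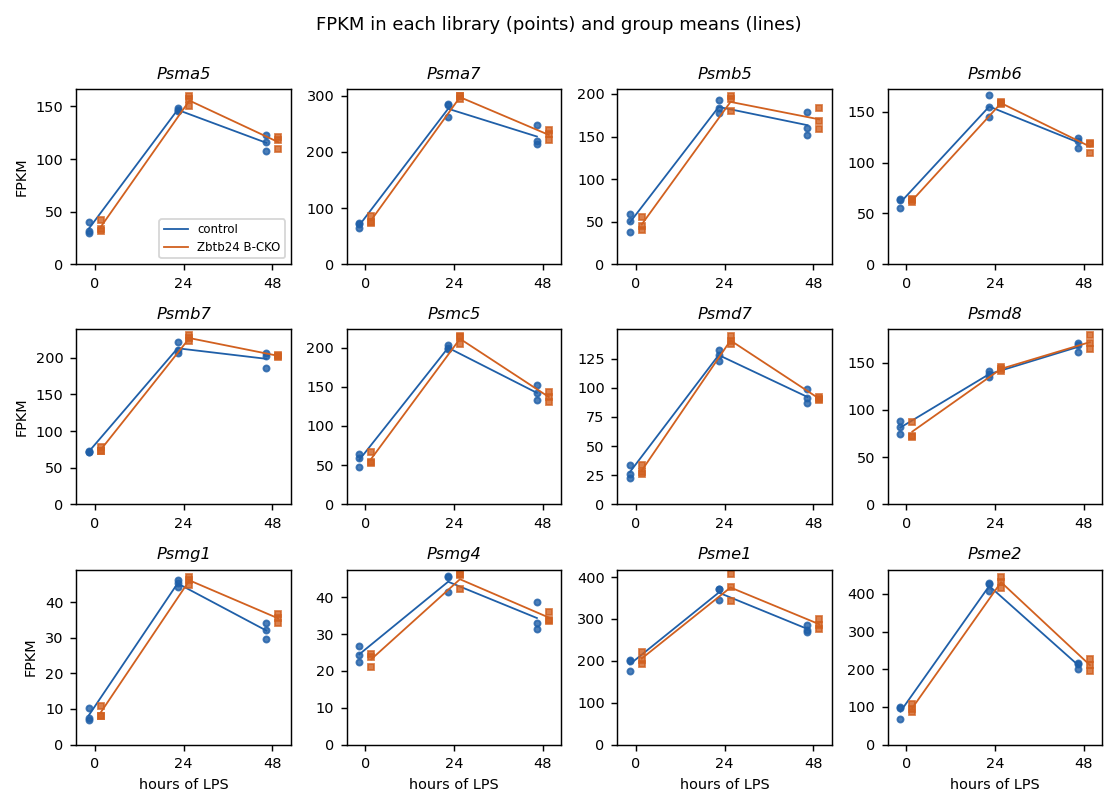
FPKM (vertical axes, from 0) of 12 proteasome genes in each library against hours of LPS (0, 24 and 48), with control (circles) and B-CKO (squares) libraries set slightly apart at each time and the mean of the 3 libraries of a group as a line. Psmb5, for example, lies between 38.0 and 58.8 FPKM in the control libraries at 0 h and between 177.9 and 192.4 FPKM at 24 h, and Psme2 peaks at 24 h.

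All 6 ATPases and all 11 other subunits of the 19S particle rose. The ATPases moved within a narrow range, from Psmc6 (33.2 to 82.5 FPKM, log2 change 1.29) to Psmc5 (56.9 ± 8.57 to 200 ± 2.65 FPKM, log2 change 1.80, SE 0.111). Among the other subunits Psmd7, the partner of the deubiquitinase Psmd14 in the lid, rose most, from 34.2, 26.1 and 23.0 FPKM to 123.3, 132.2 and 128.5 FPKM (log2 change 2.18, SE 0.14, adjusted p = 4.26e-05). Psmd14 itself, which cleaves ubiquitin chains from the substrate, rose from 28.1 to 122 FPKM (log2 change 2.09). The smallest rise was that of Psmd8, also a lid subunit, from 74.6, 81.6 and 88.1 FPKM to 134.4, 141.4 and 138.1 FPKM (log2 change 0.76, SE 0.0711, adjusted p = 0.000203).

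The assembly chaperones rose too, those of the 20S particle with a median log2 change of 1.99 and those of the 19S particle with 0.91. Psmg1, which with Psmg2 guides the formation of the alpha ring, went from 10.3, 7.36 and 6.98 FPKM to 46.1, 44.2 and 45.4 FPKM, a 5.51-fold higher mean (log2 change 2.35, SE 0.137, adjusted p = 3e-05). Psmg3, which acts with Psmg4 at the same stage, rose from 6.70 to 32.7 FPKM (log2 change 2.14), whereas Psmg4 had the smallest change of the 4 (24.6 to 44.3 FPKM, log2 change 0.83). Of the 19S chaperones Psmd5 changed most (12.8 ± 5.35 to 30.4 ± 0.429 FPKM, SD, n = 3; log2 change 1.26, SE 0.268, adjusted p = 0.00735), and without replicate 2 its adjusted p was 0.0945. Psmd9 changed least (9.22 to 15.9 FPKM, log2 change 0.72).

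The activators and the inhibitor differed more among themselves. Psme2 rose from 96.1, 100.1 and 66.9 FPKM to 427.5, 428.8 and 407.0 FPKM, a 4.80-fold higher mean (log2 change 2.27, SE 0.154, adjusted p = 5.3e-05), while its partner Psme1 was 1.89 times higher (192 ± 14.8 to 363 ± 15.6 FPKM, log2 change 0.92). The ratio of Psme2 to Psme1 FPKM was 0.454 at 0 h and 1.16 at 24 h. Psme3, the subunit of the nuclear activator PA28 gamma, rose from 67.6 to 183 FPKM (log2 change 1.42), Psme4, the activator PA200, had a log2 change of 0.56, and Psmf1 had one of 0.45 (10.6 to 14.9 FPKM, adjusted p = 0.00112). Psme2b was called lower, from 74.0, 49.7 and 37.8 FPKM to 25.1, 16.5 and 17.2 FPKM (log2 change -1.38, SE 0.27, adjusted p = 0.00508), and without replicate 2 its adjusted p was 0.078.

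**Figure D2:**
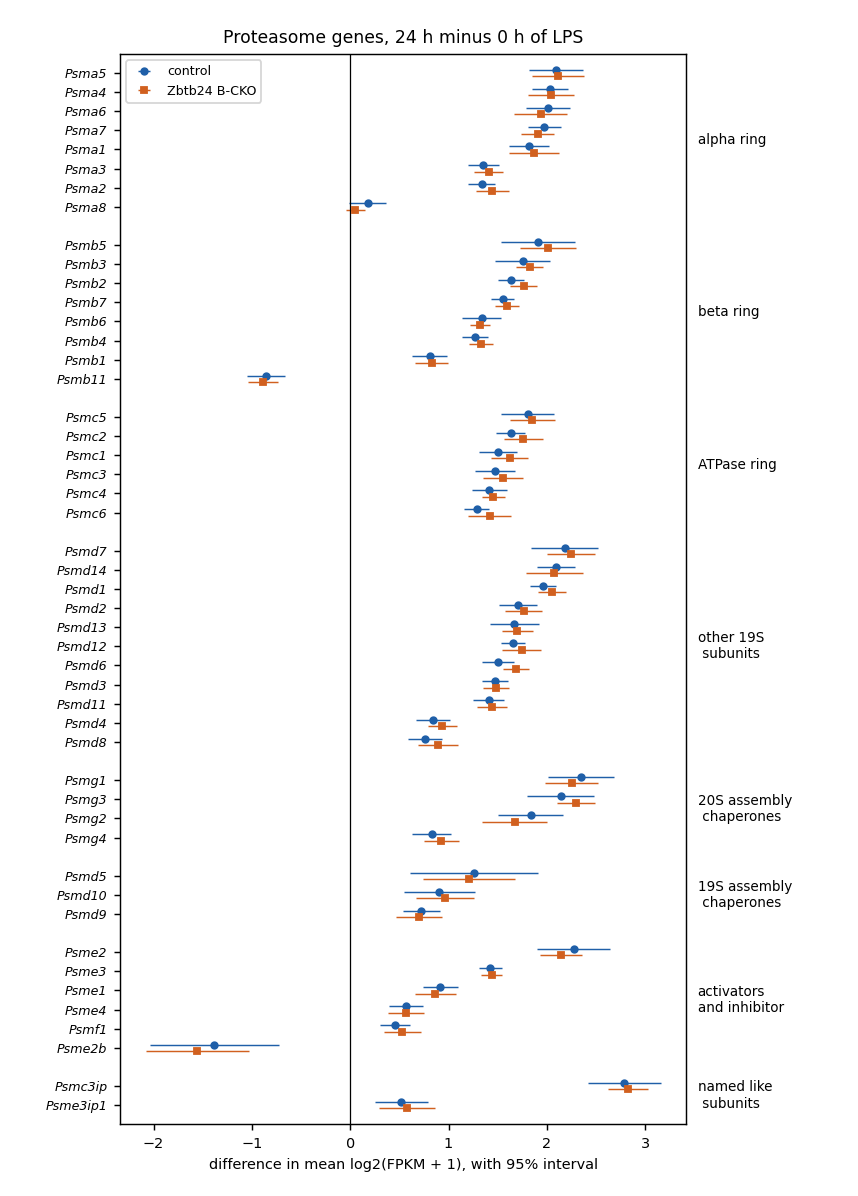
Log2 change from 0 h to 24 h (difference of mean log2(FPKM + 1), horizontal axis) of each of the 48 genes, grouped by role, in control and B-CKO cells, with 95% confidence intervals as bars. In both genotypes 45 genes were called higher, from Psmf1 with 0.45 to Psmc3ip with 2.79 in control cells, and Psme2b and Psmb11 were called lower.

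Psme2b is a gene on chromosome 11 (GRCm38, 48945345 to 48946410) with a coding sequence nearly identical to that of Psme2 on chromosome 14 (55587440 to 55591101). In the GENCODE transcripts both coding sequences had 720 bases, of which 5 differed (99.3% identical), and the longest stretch shared without a difference was 311 bases. The stretch with most differences, bases 394 to 543 of each coding sequence, is shown 5′ to 3′ with the differing bases in capitals, since it shows how few positions of the coding sequences tell them apart. Over the whole transcripts (962 and 837 bases), the alignment of the shorter to the longer had 32 edits (96.2% identical), so most differences lie outside the coding sequence.
Psme2: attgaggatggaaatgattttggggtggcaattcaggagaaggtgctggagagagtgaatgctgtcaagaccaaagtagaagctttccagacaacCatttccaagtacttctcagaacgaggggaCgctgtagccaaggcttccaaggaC
Psme2b: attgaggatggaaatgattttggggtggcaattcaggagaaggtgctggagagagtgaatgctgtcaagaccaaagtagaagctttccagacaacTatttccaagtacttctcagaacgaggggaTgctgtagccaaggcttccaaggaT
Fragments that cover no differing position can be assigned to either gene, so the division of FPKM between Psme2 and Psme2b is uncertain to an extent that was not measured. In control cells both together summed to 142 ± 33.5 FPKM before LPS, to 441 ± 14.7 FPKM at 24 h and to 231 ± 8.33 FPKM at 48 h (SD, n = 3). The sum thus had the same order over time as Psme2 alone.

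The 2 genes named like subunits were also called higher. Psmc3ip had the largest log2 change of all 48 genes, from 2.94, 3.75 and 2.18 FPKM to 25.1, 26.0 and 26.8 FPKM, an 8.78-fold higher mean (log2 change 2.79, adjusted p = 2.39e-05). Psme3ip1, which binds the PA28 gamma activator, went from 20.1 to 29.1 FPKM (log2 change 0.52, adjusted p = 0.00688). Its call was lost without replicate 2 (adjusted p = 0.101) and without replicate 3 (adjusted p = 0.0523).

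The second comparison asks whether the rise was kept from 24 h to 48 h. It was partly reversed, as 33 of the 48 genes were called lower in control cells, 1 was called higher and 14 were not called. Over all 15178 genes tested, 24.8% were called lower and 20.1% higher. The median log2 change of the 48 genes was -0.25, beside -0.0047 over all genes. Lower calls covered 4 of 4 assembly chaperones of the 20S particle, 6 of 6 ATPases, 9 of 11 other 19S subunits, 4 of 6 activators and inhibitors, 5 of 8 alpha genes, 3 of 8 beta genes and 1 of 3 assembly chaperones of the 19S particle.

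Psme2 fell most, from 421 FPKM to 217.6, 214.8 and 201.3 FPKM (log2 change -0.99, adjusted p = 2.48e-05), and the ratio of Psme2 to Psme1 came down to 0.765. Psmc3ip followed (log2 change -0.63), then Psme3 (-0.60) and the ATPase Psmc2 (-0.51). The chaperones Psmg2 and Psmg3 each fell by 0.50 on the log2 scale, Psmg1 by 0.49 and Psmg4 by 0.36. Psmd7 fell most among the other 19S subunits (-0.47), and Psma5 most in the alpha ring (-0.35). The smallest of the 6 changes in the ATPase ring was that of Psmc1 (-0.12, adjusted p = 0.0182), which lost its call without replicate 2 or 3, with median-ratio scaling, with a replicate block and in a single fit of all libraries (adjusted p from 0.0575 to 0.219). Psmd5 fell by 0.27, with an adjusted p of 0.0617 without replicate 2, 0.0606 without replicate 3 and 0.402 in the single fit, and the call of Psmg4 was lost without replicate 1 (adjusted p = 0.136) or 3 (0.0571).

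The catalytic subunits differed in this interval. Psmb6 fell, from 154.5, 166.3 and 144.2 FPKM to 124.0, 121.0 and 114.6 FPKM (log2 change -0.37, adjusted p = 0.00228), and it was the largest change of the beta ring. Psmb5, at 178.3, 151.5 and 160.0 FPKM at 48 h, was not called (log2 change -0.18, adjusted p = 0.0583). However, it was called lower without replicate 1 (-0.25, adjusted p = 0.0441) and after rescaling to TPM (-0.22, adjusted p = 0.0141). With only genes of a mean of at least 1 FPKM it was called lower as well (-0.18, adjusted p = 0.0214). Psmb7, at 203.1, 186.7 and 206.2 FPKM, was not called either (-0.10, adjusted p = 0.143), but it was called lower after rescaling to TPM (-0.14, adjusted p = 0.0275). The other beta genes without a call were Psmb1 (0.14), Psmb4 (-0.03) and Psmb11 (-0.03). With a replicate block Psmb1 was called higher (0.14, adjusted p = 0.0494).

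Psmd8 was the only one of the 48 genes called higher at 48 h than at 24 h, at 170.4, 161.2 and 168.4 FPKM against 134.4, 141.4 and 138.1 FPKM (log2 change 0.27, adjusted p = 0.000936). The remaining genes without a call were Psma1 (-0.08), Psma2 (-0.12) and Psma8 (-0.12) of the alpha ring, Psmd14 (-0.05), Psmd9 (-0.14), Psmd10 (-0.07), Psme4 (-0.0037), Psme2b (-0.0035) and Psme3ip1 (-0.06). Without replicate 1, the library with the highest Psme2b at 24 h (25.1 FPKM), Psme2b was called higher at 48 h (log2 change 0.25, adjusted p = 0.0361).

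**Figure D3:**
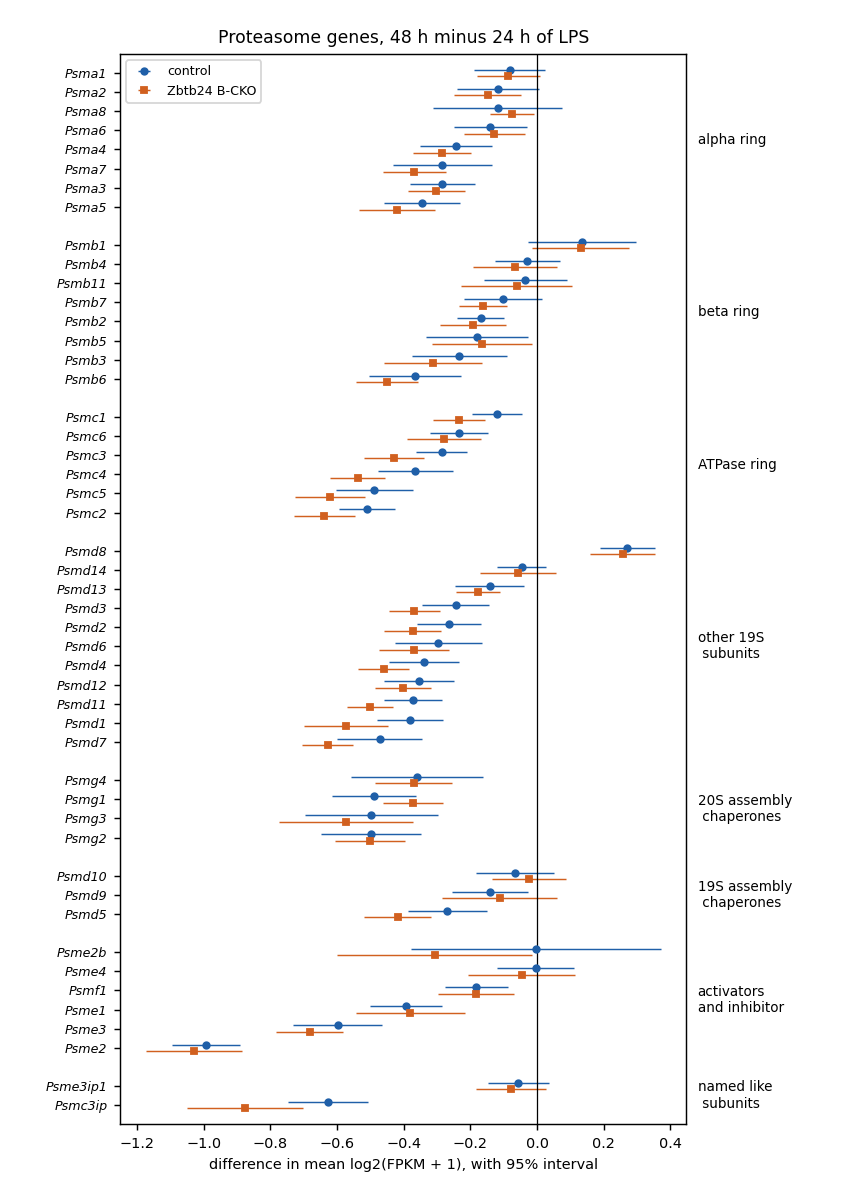
Log2 change from 24 h to 48 h (difference of mean log2(FPKM + 1), horizontal axis) of each of the 48 genes, grouped by role, in control and B-CKO cells, with 95% confidence intervals as bars. Most genes lie below 0, down to Psme2 with -0.99 in control cells and -1.03 in B-CKO cells, and Psmd8 lies above 0 in both.

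At 48 h the genes were still above their level before LPS, with 45 called higher, 2 called lower and 1 not called in control cells. Of 15584 genes tested, 26.5% were called higher and 30.3% lower, and the median log2 change was 1.22 for the 48 genes. The 3 catalytic subunits were among those higher, and Psmb5 had the largest change of the beta ring (1.73). The lowest and highest changes of the other classes were those of Psma8 (0.06) and Psma6 (1.87) in the alpha ring, Psmc4 (1.05) and Psmc1 (1.38) in the ATPase ring, and Psmd4 (0.51) and Psmd14 (2.04) among the other 19S subunits. Psmg4 (0.47) and Psmg1 (1.86) bounded the 20S chaperones, Psmd9 (0.58) and Psmd5 (0.99) those of the 19S particle, and Psme2b (-1.38) and Psme2 (1.28) the activators and inhibitor. Psmg4 had no call after rescaling to TPM (0.27, adjusted p = 0.0701) or without replicate 1 (adjusted p = 0.058), and Psmd5 had none without replicate 2 (adjusted p = 0.139) or 3 (0.0615). Psmb11 was lower by 0.89 on the log2 scale. Psma8 was again not called. Of the 48 genes, 44 had their highest mean at 24 h, Psmb1 and Psmd8 at 48 h, and Psme2b and Psmb11 at 0 h. The 45 genes called higher at 24 h had kept between 56.3% and 136% of their log2 rise at 48 h, with a median of 80.6%.

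**Figure D4:**
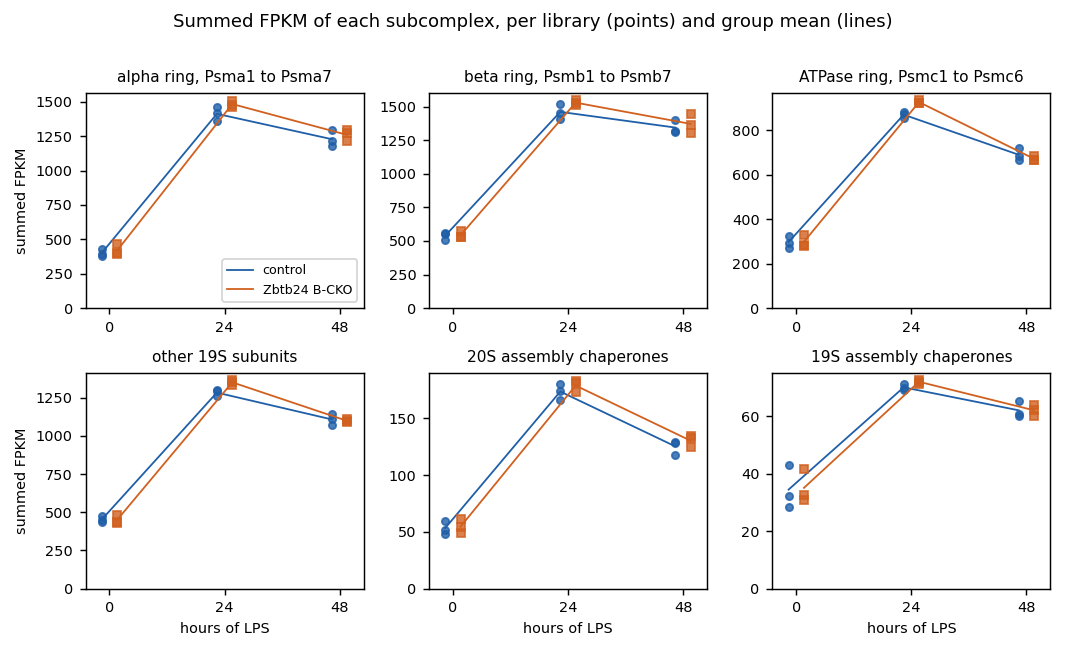
Summed FPKM (vertical axes, from 0) of the genes of 6 groups of proteasome genes in each library at 0 h, 24 h and 48 h, with the mean of the 3 control or B-CKO libraries as a line. The alpha and beta rings are in separate panels. Their 14 genes together, a sum that is not plotted, went from 941 to 2874 and 2573 FPKM in control cells. In B-CKO cells this sum went from 962 to 3015 and 2631 FPKM.

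Summed by particle, the 20S core was at 941 ± 55.3, 2874 ± 106 and 2573 ± 108 FPKM in control cells at 0 h, 24 h and 48 h (SD, n = 3). The ATPase ring was at 297 ± 27.3, 870 ± 13.8 and 690 ± 26.0 FPKM, and the 4 chaperones of the 20S particle were at 53.3, 174 and 125 FPKM. The share of the 48 genes in all FPKM was 0.982% at 48 h. Other measures moved with time as well. The summed FPKM of the B cell markers given above was lower after LPS. Cd79a, Cd22, Pax5, Cr2 and Fcer2a were lower in every later library than in any at 0 h. Ms4a1 overlapped (446 to 623 FPKM in control libraries at 0 h, 490 to 553 at 24 h), as did Cd79b (465 to 926 and 460 to 499). The summed FPKM of 6 plasma cell markers was 243 to 421 at 0 h, 135 to 154 at 24 h and 194 to 316 at 48 h, but its members did not move together. Irf4, the largest part of the sum at 0 h (118 to 266 FPKM), was between 52.4 and 67.3 FPKM later. Jchain was between 70.9 and 111 FPKM at 0 h and between 11.8 and 22.2 at 24 h. Sdc1 was between 2.89 and 6.11 FPKM at 0 h and between 1.05 and 2.00 at 24 h. At 48 h Jchain was between 36.8 and 78.8 FPKM and Sdc1 between 1.52 and 3.22. Tnfrsf17 did not exceed 0.75 FPKM in any library. Prdm1 and Xbp1, regulators of plasma cell identity and secretion, went the other way, Prdm1 from between 1.41 and 3.79 FPKM before LPS to between 12.4 and 22.3 at 48 h, and Xbp1 from between 35.8 and 49.7 to between 88.8 and 145. The part of any of these in the changes of the proteasome genes was not tested. At 0 h the spread between replicates was larger than later, with a median SD of log2(FPKM + 1) over the 48 genes of 0.118 in control and 0.124 in B-CKO cells, against 0.0513 and 0.0375 at 24 h. In control cells at 0 h replicate 1 had the highest value of the 3 for 33 of the 48 genes, and in B-CKO cells for 38.

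The immunoproteasome genes, which the rule leaves out, are catalytic subunits that replace the constitutive ones in lymphoid cells. In control cells Psmb8 rose from 147 to 289 FPKM by 24 h (log2 change 1.00), Psmb9 rose (0.78), and Psmb10 was not called (0.37, adjusted p = 0.228). Psmb8 FPKM were 2.97 ± 0.189 times those of its constitutive counterpart Psmb5 before LPS, 1.56 ± 0.0723 times at 24 h and 1.79 ± 0.139 times at 48 h (SD, n = 3). The ratio of Psmb9 to Psmb6 was 1.46, 0.980 and 1.72, and that of Psmb10 to Psmb7 was 0.916, 0.388 and 0.324. For Psmb5 and Psmb8 the lowest ratio at 0 h (2.83) lay above the highest at either later time (1.93).

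Of 35 other genes of the pathway, 34 were matched in the table, and 20 of them rose and 5 fell in control cells by 24 h. Among the 10 genes of proteins associated with the proteasome 8 rose, from Ube3c (0.38) to Usp14 (1.68), a deubiquitinase of the 19S particle. Pomp, the chaperone that helps the core to close, rose from 61.9 to 195 FPKM (1.64). Zfand5 fell (-0.55), and Akirin2, which carries proteasomes into the nucleus, was not called (-0.09). Of 9 ubiquitin shuttles and segregase genes 7 rose, led by the unfoldase Vcp (82.2 to 286 FPKM, 1.79), and Ubqln2 fell (-0.55). Of 5 genes for ubiquitin and its activating enzymes 3 rose, up to Uba6 (0.91), and none fell, with Ubb the lowest (-0.26, adjusted p = 0.0721).

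The list held 7 genes for the transcription of proteasome genes and its activation, Nfe2l1, Nfe2l2, Ddi2, Ngly1, Maf, Mafk and Mafg. They did not share the called rise of the subunits by 24 h. None of these 7 was called higher in control cells at 24 h by limma, and Maf (-2.86), Mafk (-2.28) and Ngly1 (-0.27) were called lower. In B-CKO cells Ngly1 was not called (-0.09, adjusted p = 0.395). Nfe2l1, which induces proteasome genes when the proteasome is inhibited, was at 30.5 ± 6.91 FPKM at 0 h and 38.8 ± 0.949 at 24 h (SD, n = 3; log2 change 0.36, adjusted p = 0.0903). Nfe2l2 had a log2 change of -0.07. From 24 h to 48 h in control cells, 20 of the 34 genes fell, including all 9 shuttle and segregase genes, and Akirin2 (0.36) and Psmb9 (0.45) rose. In that interval 4 of the 7 transcription genes fell as most subunits did, Nfe2l1 (-0.35), Ddi2 (-0.33), Mafk (-0.73) and Mafg (-0.72). The other 3 were not called.

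Promoter sequences of RefSeq (GRCm38.p6), from 250 bases before to 50 after the start, were found for 40 of the 48 genes. They were searched on both strands for the core of the antioxidant response element (ARE, TGACNNNGC), which Nfe2l1 and Nfe2l2 are known to bind, for the core of ETS factors (CCGGAAG), for the E-box CACGTG and for CCAAT. No matches of different motifs shared bases. Of the 40 genes 4 had 2 or more such windows, at different annotated starts, and a match in any of them was counted. The ARE core was in 6 of the 40 genes (15.0%), beside 14% of all 27025 genes with such a sequence and 16.4% of the 13151 that are in the table. CCAAT was in 15 (37.5%, beside 41.1% of all and 42.4% of the table's genes) and the E-box in 4 of the 40 (beside 8.09% and 10.5%). The ETS core was in 16 (40.0%, beside 9.93% and 16.4%). It was in 9 of the 14 ATPase and other 19S genes with a sequence and in 1 of the 12 alpha and beta genes. Of its 22 matches 19 lay from 100 bases before to 50 after the start. The median log2 change from 0 h to 24 h in control cells was 1.57 for the 16 genes with the ETS core. It was 1.34 for the 24 without it, which include Psmb11 and Psme2b, both called lower. The direction differed between classes, but each class held few genes. Among the other 19S subunits, where 6 of 9 genes had the ETS core, the median was 1.58 with it and 1.96 without it. In the ATPase ring (3 of 5 genes) it was also lower with the core. It was higher with the core among the 20S chaperones (2.24 against 0.83, 2 of 3 genes). The same held for the activators and inhibitor (0.99 against 0.68, 2 of 6 genes). In the alpha ring only 1 of 7 genes had the core, Psma6 (2.01 against a median of 1.90 without it). Its matches lay only in the window from chr12:55398575, at a later annotated start. With the ARE core the median was 1.31, lower than without it. These are descriptions of the letters in these windows.

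The 120 bases before the start are shown 5′ to 3′ along the gene's strand for the 2 catalytic subunits with an ARE core, for the chaperone with the largest rise, for 2 subunits of the 19S particle and for Psmc3ip, the gene with the largest change of all. Capitals mark the ARE core in Psmb5 and Psmb6 and the ETS core in the others, on either strand. In the order shown, the stretches were chr14:54617996-54618115 (minus strand), chr11:70525237-70525356 (plus), chr16:95990961-95991080 (minus), chr16:20651532-20651651 (plus), chr14:14120946-14121065 (minus) and chr11:101095436-101095555 (minus).
Psmb5: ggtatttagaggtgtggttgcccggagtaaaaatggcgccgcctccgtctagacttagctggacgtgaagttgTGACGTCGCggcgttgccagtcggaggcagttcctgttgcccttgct
Psmb6: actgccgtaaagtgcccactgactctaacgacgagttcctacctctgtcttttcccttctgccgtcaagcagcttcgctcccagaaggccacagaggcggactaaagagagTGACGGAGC
Psmg1: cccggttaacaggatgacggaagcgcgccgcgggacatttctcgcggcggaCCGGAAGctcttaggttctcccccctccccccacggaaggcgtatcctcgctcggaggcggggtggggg
Psmd2: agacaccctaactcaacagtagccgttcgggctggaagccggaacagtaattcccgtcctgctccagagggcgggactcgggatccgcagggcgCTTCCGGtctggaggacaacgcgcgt
Psmd6: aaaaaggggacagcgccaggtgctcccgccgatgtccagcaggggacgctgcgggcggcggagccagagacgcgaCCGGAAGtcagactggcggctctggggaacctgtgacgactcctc
Psmc3ip: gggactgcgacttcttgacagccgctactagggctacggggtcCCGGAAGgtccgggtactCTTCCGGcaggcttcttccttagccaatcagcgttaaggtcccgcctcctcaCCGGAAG
Psmc3ip held 3 matches in this stretch, and the other genes shown held 1 of the motif in capitals. From 0 h to 24 h in control cells the log2 change was 1.91 for Psmb5 and 1.34 for Psmb6, 2.35 for Psmg1, 1.70 for Psmd2 and 2.79 for Psmc3ip, and mean Psmd6 was 2.88 times higher. The 48 genes lay on 16 chromosomes, with at most 10 on any of them, and the nearest neighbours were Psme1 and Psme2, 5912 bases apart on chromosome 14.

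In Zbtb24 B-CKO cells the same genes were compared over time. From 0 h to 24 h 45 of the 48 genes were called higher, 2 lower and 1 was not called, where 27.5% of 15551 genes were called higher and 32.3% lower. The median log2 change of the 48 genes was 1.57. Psmc3ip (2.83), Psmg3 (2.30), Psmd7 (2.24), Psme2 (2.15), Psma5 (2.11), Psmb5 (2.01) and Psmc5 (1.85) had the largest changes of their classes, beside Psmd5 (1.21) among the 19S chaperones. Mean Psmb7 went from 74.5 to 227 FPKM, and Psmb6 rose by 1.32 on the log2 scale. The smallest rises were those of Psmd9 (0.70), Psmd8 (0.89), Psmg4 (0.93) and Psmc6 (1.42) in their classes. Psme2b was lower (-1.55), as was Psmb11 (-0.89), and Psma8 was not called. All 48 genes had the same call in both genotypes. Across the 48 genes, the log2 changes of the genotypes correlated with r = 0.995 as a description (the genes share libraries), and the largest difference between them was 0.19. Over 14900 genes r was 0.990.

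From 24 h to 48 h in B-CKO cells 35 genes were called lower, 1 was called higher and 12 were not called, where 24% of 15253 genes were called lower and 21.7% higher. The median log2 change was -0.34. Psme2 fell most (-1.03), and Psmc3ip (-0.88), Psme3 (-0.68), Psmc2 (-0.64) and Psmd7 (-0.63) followed. Psmd8 rose (0.26, adjusted p = 0.00211), and without replicate 1 its adjusted p was 0.0543. Psmb6 fell by 0.45 on the log2 scale, and Psmb5 was not called (-0.16, adjusted p = 0.0741). Psmb5 was called lower after rescaling to TPM (-0.22, adjusted p = 0.0108) and without replicate 3 (-0.26, adjusted p = 0.0147). The same held at a mean of at least 1 FPKM (adjusted p = 0.0328). The other genes without a call were Psme2b, Psmd9, Psma1, Psme3ip1, Psma8, Psmb4, Psmb11, Psmd14, Psme4, Psmd10 and Psmb1, from -0.31 for Psme2b to 0.13 for Psmb1. With a replicate block Psma8 was called lower (-0.07, adjusted p = 0.0372). Of the 48 genes 46 had the same call in both genotypes. The exceptions, Psma2 (-0.15) and Psmb7 (-0.16), were called lower in B-CKO cells and not in control cells, but for neither was the difference between the genotypes called, and the call of Psmb7 was lost without replicate 1 (adjusted p = 0.0628). From 0 h to 48 h 45 genes were called higher, 2 lower and 1 was not called, where 27% of 15695 genes were called higher and 30.7% lower, with a median log2 change of 1.16. Psmd14 (2.02), Psmg1 (1.88), Psmb5 (1.85), Psma6 (1.81), Psmc1 (1.39) and Psme2 (1.12) had the largest changes of their classes, and Psme2b (-1.86) and Psmb11 (-0.95) were lower. All 48 calls were the same as in control cells. At 48 h the 45 genes had kept a median of 78.9% of their log2 rise.

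The direct comparison of the genotypes asks whether loss of Zbtb24 changed the level of these genes. By limma, none of the 48 genes was called at any time, where 0% of 15641 genes were called at 0 h, 0.0993% of 15104 (15 genes) at 24 h and 0.046% of 15210 (7 genes) at 48 h. With only genes of a mean of at least 1 FPKM, 4% of all genes were called at 24 h and 0.294% at 48 h, and still none of the 48. At an unadjusted p under 0.05, none of the 48 passed at 0 h, 15 passed at 24 h and 2 at 48 h. At 0 h the median log2 difference, B-CKO minus control, was 0.01. The 3 genes with the smallest p were Psma7 (0.17, 95% interval -0.05 to 0.39, adjusted p = 1), Psmd6 (-0.11) and Psme1 (0.10). In all 3 B-CKO libraries Psma7 lay above the control libraries (86.4, 73.5 and 76.2 against 72.7, 72.3 and 64.3 FPKM), and Psmd6 lay below in all 3. These were the only genes of the 48 whose groups did not overlap, where 1.92% of all genes lay wholly above and 1.94% wholly below.

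At 24 h the differences were small and mostly of one sign. Of the 48 genes 45 had a positive difference, beside 46.9% of all genes, and the median was 0.06. The exceptions were Psme2b, Psme4 and Psma8. The 48 genes share libraries, so the counts here are descriptions and not counts of independent genes. In control cells at 24 h replicate 2 had the highest value of the 3 for 32 of the 48 genes. All 15 genes with an unadjusted p under 0.05 were higher in B-CKO cells, where 6.79% of all genes were higher at that p. In 15 genes all B-CKO libraries lay above all control libraries, and in none did they lie below, where 8.43% of all genes lay wholly above and 11.7% wholly below. These were 5 of the 6 ATPases, 5 of the 11 other 19S subunits, 2 alpha genes, 2 beta genes and Psmc3ip. Psmd7 had the smallest p, at 137.3, 143.9 and 140.3 FPKM in B-CKO cells against 123.3, 132.2 and 128.5 FPKM in control cells (log2 difference 0.13, 95% interval 0.06 to 0.21, unadjusted p = 0.0053, adjusted p = 0.136). Psmc4, an ATPase, was at 163.7, 170.2 and 170.1 FPKM against 154.1, 157.5 and 157.9 FPKM (0.10, interval 0.04 to 0.16, adjusted p = 0.14), and Psmc1 was next (0.09, adjusted p = 0.188). The groups did not overlap in these genes, and none of the differences passed the adjusted threshold. The number at an unadjusted p under 0.05 depended on single libraries, being 4 without control replicate 1, 5 without B-CKO replicate 2, 7 without B-CKO replicate 3 and 19 without control replicate 2. It was 12 without control replicate 3 and 11 without B-CKO replicate 1. The number was 9 after rescaling to TPM, 17 with a replicate block, 22 with median-ratio scaling and 0 in a single fit of all 18 libraries. For all 48 genes both bounds of the 95% interval of the difference at 24 h lay within 0.5 of 0 on the log2 scale.

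**Figure D5:**
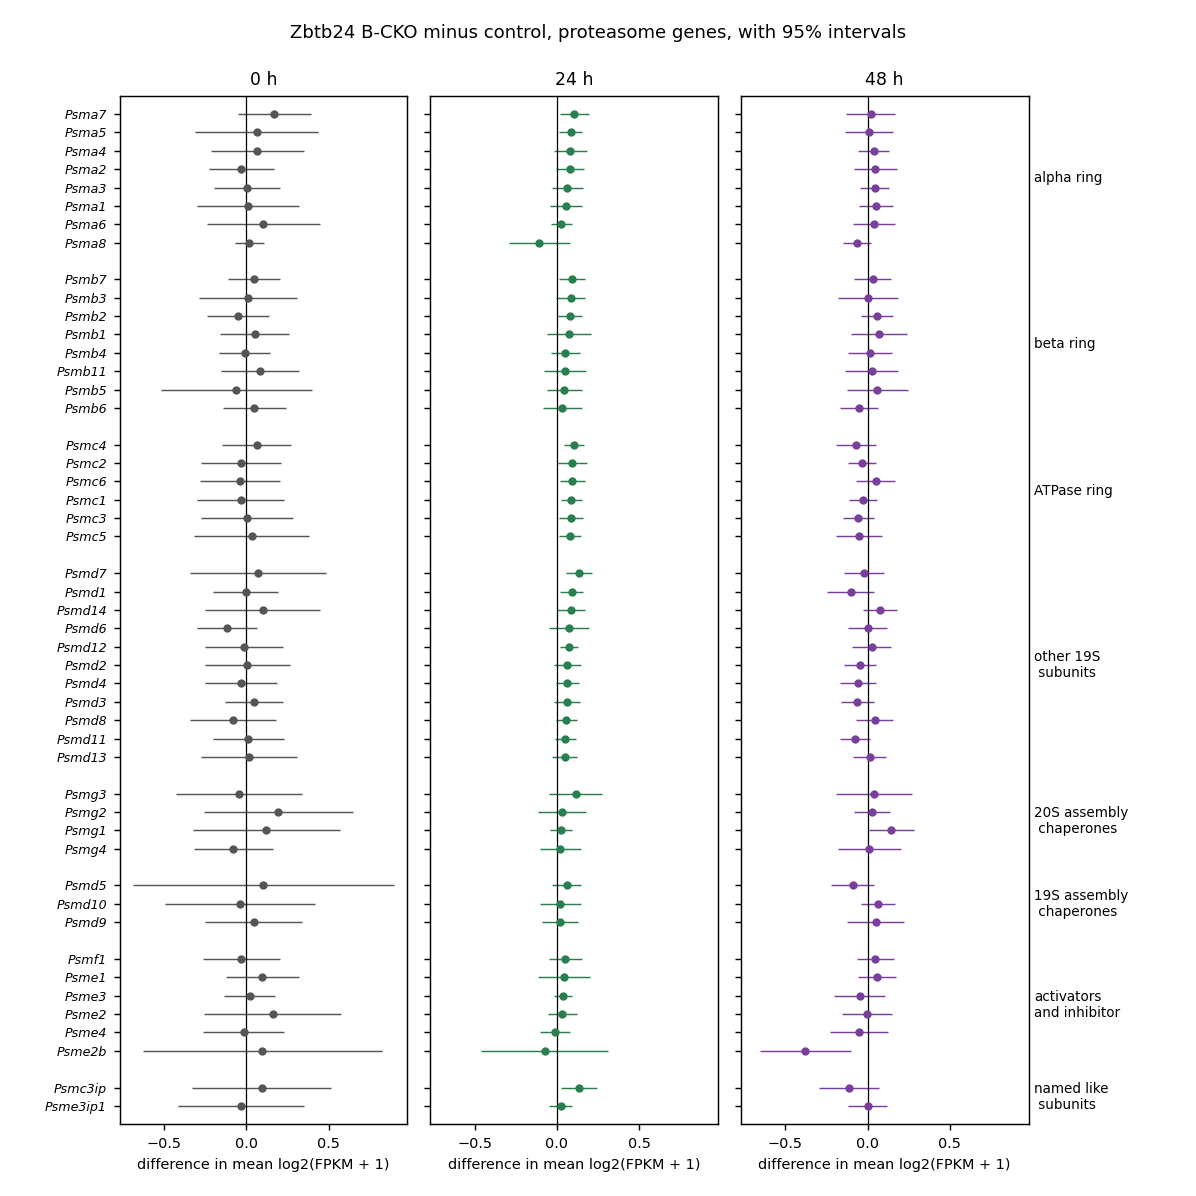
Log2 difference between B-CKO and control cells (difference of mean log2(FPKM + 1), horizontal axis) of each of the 48 genes at 0 h, 24 h and 48 h, in 1 panel per time, with 95% confidence intervals as bars. No gene was called, and at 24 h 45 of the 48 points lie above 0, by at most 0.14.

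At 48 h 29 of the 48 genes had a positive difference, with a median of 0.01. Psme2b had the smallest p, at 14.3, 17.1 and 12.7 FPKM in B-CKO cells against 17.2, 21.0 and 19.6 FPKM in control cells (-0.38, 95% interval -0.65 to -0.10, unadjusted p = 0.0143, adjusted p = 0.463). Psmg1 was at 36.6, 34.2 and 35.5 FPKM against 34.2, 32.1 and 29.7 FPKM (0.14, interval 0.01 to 0.28, adjusted p = 0.622), and Psmd11 followed (-0.08, adjusted p = 0.716). Psmg1 was the only gene wholly above, where 4.89% of all genes were, and Psme2b, Psmd5 and Psmd11 lay wholly below, where 6.24% of all genes did. Both bounds of the interval lay within 0.5 of 0 for 47 of the 48 genes at 48 h and for 41 at 0 h. These intervals come from fits without pairing. At 0 h, where same-numbered libraries of the genotypes deviated together, a fit with the replicate block had both bounds within 0.5 for 47 genes, and the median width of the interval was 0.29 in place of 0.50.

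The difference between the genotypes in the response to LPS was tested as an interaction. By limma, 0% of 16182 genes were called for the change from 0 h to 24 h and 0% of 15844 for the change from 24 h to 48 h, and so none of the 48. At an unadjusted p under 0.05, Psmd6 alone passed for the first interval (0.19, adjusted p = 1 by limma). For the second, 11 of the 48 genes passed, all with a lower change in B-CKO cells, where 3.38% of all genes were lower at that p. That number also depended on single libraries, being 4 without control replicate 1, 7 without control replicate 2 and 12 without control replicate 3. It was 5 without any 1 of the B-CKO replicates. It depended on the fit as well, being 6 with a replicate block and 1 in the single fit of 18 libraries. It was 10 after rescaling to TPM, 11 with median-ratio scaling and 7 at a mean of at least 1 FPKM. The smallest p were those of Psmc3 (-0.14, adjusted p = 0.604), Psmc4 (-0.17, adjusted p = 0.61) and Psmd11 (-0.13, adjusted p = 0.61). This comparison uses the same 24 h libraries as the genotype comparison at 24 h, and its counts are likewise not of independent genes. None of the 34 other genes of the pathway was called between the genotypes at any time.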

How the data were processed

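The authors aligned reads to mm10 and deposited FPKM per gene, rounded to 2 decimals. The authors' methods and processing notes name bowtie2, BWA, Cufflinks, RSEM and DESeq2, with versions not given in the sources used here. FPKM are shares of a library and not absolute amounts. Of 99 low genes 38 had values at whole steps (within 0.15 of a step), so reads could not be recovered and no count model was used. One gene of the pathway list and one B cell marker are not reported here.

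Gene IDs were matched to RefSeq (GRCm38.p6) for 16512 genes, and 33 had no match. The libraries of each comparison were fitted with limma 3.58.1 (R 4.3.3, trend) on log2(FPKM + 1) over genes above 0 in any of them, with Benjamini-Hochberg adjustment over all and a threshold of 0.05. The scripts (Python 3.11.15, pandas 2.3.3, matplotlib 3.10.9) were tested on simulated data.

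The genes and lists were chosen with earlier results of these data known. Named were, for each class and time comparison, the genes with the highest and lowest change, the catalytic subunits, and those not called or against the majority, and for genotype comparisons the 3 smallest p. A few others, such as Psma7 in the first comparison and the genes shown with promoters, were chosen after their values were seen.

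Alternatives were a pseudocount of 0.1, a filter at a mean of 1 FPKM, scaling to TPM or by median ratios, 1 fit of all 18 libraries, a replicate block and leaving out replicates. The block together with the filter was added after seeing the data. Replicate numbers were taken to pair libraries where every same-numbered pair correlated above 0.1 in its deviations across genes. This held for control and B-CKO libraries at 0 h (r = 0.854, 0.468 and 0.789) and for B-CKO libraries at 24 h and 48 h (0.126, 0.183 and 0.117). It did not for the genotypes at 24 h (0.103, 0.200 and 0.091, beside at most 0.0085 for different numbers) or 48 h (-0.037, 0.216 and 0.230). What a replicate number stands for is not given in the labels.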

Additional observations from a re-analysis of the deposited data

How the results depend on the processing

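The number of the 48 genes called kept within 1.5 times its value in every alternative but the one added after seeing the data. Without 1 replicate in turn it was 44 to 47 for control cells and 46 to 47 for B-CKO cells from 0 h to 24 h, 26 to 32 and 29 to 33 from 24 h to 48 h, and 43 to 45 and 43 to 47 from 0 h to 48 h. Rescaling to TPM gave 40 called genes for control cells from 24 h to 48 h in place of 34, and a single fit gave 29. With the replicate block, 47, 33 and 46 genes were called in control cells and 47, 36 and 47 in B-CKO cells over the same intervals, and none between the genotypes at any time. With the replicate block and a mean of at least 1 FPKM, chosen after seeing the data, 1 gene was called between the genotypes at 24 h (Psmd7, 0.13, adjusted p = 0.0378) and 1 at 48 h (Psme2b, -0.38, adjusted p = 0.0385), and none at 0 h. That fit called 7.25% of all 9711 genes tested at 24 h and 1.18% at 48 h, above the share of the proteasome genes at 24 h (1 of 46). Of 1194 alternative values over 130 pairs of a named gene and a comparison, 1134 kept direction and call, 22 gained a call, 29 lost one and 9 changed sign. Signs changed for genes that had no call in the report. From 24 h to 48 h in control cells Psme2b was 0.0187 and Psme4 0.0184 under median-ratio scaling. Without 1 replicate in turn, Psme2b ranged from -0.17 to 0.25, Psme4 from -0.0392 to 0.0478 and Psmb4 from -0.0561 to 0.0144 in control cells for that interval, and Psmb11 from -0.0911 to 0, Psmd10 from -0.0468 to 0.0182 and Psme4 from -0.11 to 0.023 in B-CKO cells. Psma8 ranged from -0.0555 to 0.0213 from 0 h to 48 h in B-CKO cells. The causes were not tested. Depth in fragments was unknown, so the precision of low genes such as Psma8 and Psmb11 could not be set from counts.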
